A study of Homo sapiens with 39 samples.

Results

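The genes described are 39 human genes that encode the coats and adaptors of transport vesicles and the small GTPases that recruit them. They were chosen by name: 8 COPI coat subunits, 10 genes of the COPII coat with its GTPases, 5 ARF GTPases, 3 clathrin chains, 4 subunits of the AP-1 adaptor, 5 of AP-2 and 4 of AP-3. All 39 were found among the 21530 gene symbols of the polysome table and the 26334 of the RNA immunoprecipitation tables, and all 39 passed the filter on low counts in both. The study asked what U2AF1, a splicing factor that recognises the end of introns, does on RNA in the cytoplasm. Human bronchial epithelial cells (HBEC) were used as a line with the U2AF1 S34F mutation (S34F), a line labelled Frame Shift (FS) and a line with wild-type U2AF1 (WT). The labels do not say what the frame shift does, nor how the lines were made. Each line gave 1 library each of RNA precipitated with U2AF1 (IP), of RNA in a control immunoglobulin precipitate (IgG) and of cytosolic RNA (Cytosol), and 8 libraries of a polysome gradient, from monosomes through 2, 3, 4, 5, 6 and 7 ribosomes to a fraction of 8-10 ribosomes. PAR-CLIP, in which a crosslinked protein leaves T-to-C conversions in the reads of the RNA it touched, was done in another cell type, Flp-In-293 cells that express FLAG-HA tagged U2AF1. Its lists cover S34F protein in the cytoplasm, WT protein in the cytoplasm and WT protein on chromatin, and each list pools 2 replicates.

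Vesicles that carry cargo between the endoplasmic reticulum, the Golgi, endosomes and the plasma membrane are shaped by protein coats. COPII, recruited by the SAR1 GTPases, buds vesicles from the endoplasmic reticulum. COPI, recruited by ARF GTPases, carries proteins back from the Golgi. Clathrin, linked to cargo by the AP-1 adaptor at the Golgi and endosomes and by AP-2 at the plasma membrane, forms the third coat, and AP-3 serves sorting to lysosomes.

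Libraries held 2582162 to 29769920 counts in the precipitation experiment and 2440110 to 13367474 in the gradients. A count of 0 would allow up to 0.101 to 1.16 CPM (counts-per-million, a gene's share of its library's counts) in the first and 0.224 to 1.23 CPM in the second, for counting error only. Markers of basal airway epithelium summed to 17800 to 27400 CPM in IP, 30800 to 60100 CPM in IgG and 23800 to 33700 CPM in Cytosol libraries. In these libraries 8 fibroblast markers together reached at most 40.6 CPM, and 5 leukocyte markers summed to 48.8 to 167 CPM. Of the leukocyte markers PTPRC, CD3E and HLA-DRA were at 0 in all of them. In the gradients basal markers summed to 8120 to 18600 CPM and leukocyte markers to 79.6 to 379 CPM. KRT14, a basal keratin, was listed at 0 in all IP and IgG libraries. The U2AF1 mRNA stood at 21.5 CPM in S34F Cytosol, 54.7 CPM in FS Cytosol and 53.9 CPM in WT Cytosol. Each line is 1 set of libraries, so the only replicates are 3 lines that also differ in genotype. The p-values rest on the spread left after the line averages are removed, estimated from all libraries of the experiment together.

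In chromatin, the U2AF1 contacts on these genes included the ends of introns. The WT chromatin list held 450 clusters with 17765 reads on 35 of the 39 genes, and 95 of the 450 clusters (21.1%) ran from an intron into the exon that follows, as did 18.7% of all clusters with a gene name in that list. The 7 sequences shown next are from short clusters of this kind that ran into a coding exon. For each gene only the cluster with the most reads was taken, and the genes were ranked by it. Further CLTC clusters from an intron into an exon, with 191 and 180 reads, are therefore not shown. A cluster on CLTA with 108 reads is not shown, because its first CAG lies near the far end of the cluster and not at the end of the intron. They are written from intron to exon, and capitals mark the first CAG or TAG, the triplet with which most introns end. Positions are those of the list, whose genome build is not stated. Of the 450 clusters, 443 lie inside the gene spans of the precipitation tables and 123 inside those of GRCh38, so they are not GRCh38 positions.
COPA, chr1:160267513-160267553, minus strand: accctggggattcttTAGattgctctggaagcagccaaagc
CLTC, chr17:57742132-57742169, plus strand: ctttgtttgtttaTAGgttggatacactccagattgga
SAR1B, chr5:133948430-133948455, minus strand: cttattTAGcttccgaagaactgacc
AP2A2, chr11:984634-984678, plus strand: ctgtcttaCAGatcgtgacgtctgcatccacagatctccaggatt
COPB2, chr3:139085966-139086003, minus strand: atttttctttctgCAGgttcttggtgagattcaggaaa
SEC31A, chr4:83750191-83750222, minus strand: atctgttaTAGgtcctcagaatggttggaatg
COPB1, chr11:14498546-14498593, minus strand: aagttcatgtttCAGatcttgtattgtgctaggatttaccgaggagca

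The first of them, in COPA, which encodes the alpha subunit of COPI, held 293 reads with a T-to-C share of 90.9%. The clusters on CLTC (clathrin heavy chain), SAR1B (a COPII GTPase), AP2A2 (an alpha subunit of AP-2), COPB2, SEC31A and COPB1 held 226, 223, 212, 146, 113 and 101 reads. Of the 93 clusters on these genes that ran from an intron into a coding exon, 88 contained CAG or TAG, the first of which was CAG in 58.0% and TAG in 42.0%. Over all 15018 such clusters of the list the values were 57.5% and 42.5%, so the coat genes did not stand apart in this letter. In the up to 10 bases before the triplet, thymines made up 59.6% on average on the coat genes and 55.9% over all such clusters. Only the given strand was searched.

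The genes with most reads in chromatin were CLTC with 2940 reads in 64 clusters, COPA with 1773 reads in 39 clusters, AP3D1 (delta subunit of AP-3) with 1618 reads in 36 clusters and SEC23B (a COPII inner coat subunit) with 1548 reads in 32 clusters. AP3B1 (beta subunit of AP-3) had 975 reads in 22 clusters, SEC31A, which forms the COPII outer coat, 940 reads in 15 clusters, AP2A2 845 reads in 21 clusters and SEC24C, a COPII cargo adaptor, 692 reads in 20 clusters. On SEC23B, 1 cluster at the stop codon held 342 reads, the most of any cluster on these genes. ARCN1 (delta subunit of COPI) and CLTB (clathrin light chain b) had no cluster in any of the 3 lists, and the ARF4 and ARF6 GTPases had none in chromatin.

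In the cytoplasm the contacts lay mostly in exons. The S34F cytoplasm list held 123 clusters with 1796 reads on 32 of the 39 genes, and the WT cytoplasm list 119 clusters with 1734 reads on 30. Clusters in coding exons made up 39.8% and those in the 3-prime UTR 26.8% in S34F cytoplasm, and 46.2% and 26.1% in WT cytoplasm. Over all clusters with a gene name, coding exons made up 28.7% and 3-prime UTRs 18.7% in S34F cytoplasm, and 35.5% and 16.5% in WT cytoplasm, with no replicate to test either gap. Clusters from an intron into an exon numbered 5 in S34F cytoplasm and 4 in WT cytoplasm. Examples that hold CAG or TAG are shown next, from S34F and from WT cytoplasm, with the same marking. They held only 10, 6, 12 and 10 reads. Among those not shown are WT cytoplasm clusters on CLTA with 14 reads and on SEC24C with 10 reads, the second with neither triplet.
SEC23B, chr20:18496292-18496326, plus strand: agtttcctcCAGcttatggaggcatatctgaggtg
AP2B1, chr17:33951403-33951423, plus strand: ccttcttttcCAGgtggtggc
SAR1A, chr10:71921467-71921512, minus strand: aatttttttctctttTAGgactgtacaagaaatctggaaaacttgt
COPB2, chr3:139088381-139088400, minus strand: cttttttctccCAGgtatgc

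ARF1, the GTPase that recruits COPI and AP-1, had the most reads of the 39 genes in both cytoplasmic lists, 275 reads in 10 clusters in S34F cytoplasm and 219 reads in 6 clusters in WT cytoplasm. As reads-per-million of the list these are 418 in S34F cytoplasm and 416 in WT cytoplasm, against 27.7 in WT chromatin. Other genes differed more between the cytoplasmic lists. ARF3 had 188 reads in 7 clusters in S34F cytoplasm and 35 reads in 4 clusters in WT cytoplasm, a log2 ratio of reads-per-million of 2.10. SEC31A had 129 reads in 6 clusters in S34F cytoplasm and 17 reads in 2 clusters in WT cytoplasm, a log2 ratio of 2.60. AP3B1 had 118 reads in 7 clusters in S34F cytoplasm and 20 reads in 3 clusters in WT cytoplasm, a log2 ratio of 2.24.

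AP3D1 went the other way, with 11 reads in 1 cluster in S34F cytoplasm and 192 reads in 14 clusters in WT cytoplasm, a log2 ratio of -4.45. These are counts of 1 pooled list a genotype and of few reads, so no test was made. Among 27 of the 39 genes with clusters in both cytoplasmic lists and at least 20 reads, 3 were past 2-fold higher and 10 past 2-fold lower in S34F cytoplasm. Of the 4801 genes that met the same conditions, 16.6% were past 2-fold higher and 35.0% past 2-fold lower, so 3 and 10 of 27 are near that background. The genes with most reads after ARF1 were ARF3, CLTC with 146 reads, ARF6 with 130, SEC31A, AP3B1, SAR1A with 103 and SEC23B with 86 in S34F cytoplasm. In WT cytoplasm they were AP3D1, SEC23B with 115 reads, SAR1A with 107, CLTC with 103, AP1M1 (mu subunit of AP-1) with 87, AP2S1 with 67 and AP3S1 with 65.

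Single clusters held many of the reads in S34F cytoplasm. The clusters with most reads on ARF3 (3-prime UTR) and SEC31A (coding exon) held 93 and 88 reads. Their T-to-C shares were 6.45% and 17.9%, while the median T-to-C fraction over the clusters on these genes in that list was 0.733. They are shown because they hold a large share of the reads that set the lists apart.
ARF3, chr12:49332098-49332124, minus strand: aagggaagaaggtgggagggcattagt
SEC31A, chr4:83800000-83800026, minus strand: ggagttctgattgcaggtggtgaaaat

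Few clusters came back at the same place. Of the 123 clusters on these genes in S34F cytoplasm, 14 (11.4%) overlapped a WT cytoplasm cluster by at least 1 base, and of the 119 in WT cytoplasm, 11 (9.24%) overlapped one of S34F cytoplasm. Over all clusters with a gene name the shares were 9.40% and 10.3%. WT chromatin clusters overlapped 18.5% of those in WT cytoplasm on these genes and 19.4% of all. Clusters that the lists annotate as start codon numbered 3 on the coat genes in S34F cytoplasm, 1 in WT cytoplasm and 5 in WT chromatin. These are 2.44%, 0.84% and 1.11% of the clusters on these genes, against 1.20%, 1.34% and 1.04% of all clusters with a gene name. The annotation is the authors', and in some of these clusters an ATG in the letters need not be the start codon of the main protein. Stretches of at most 30 bases with the first ATG in capitals are shown for ARF1 from S34F cytoplasm, with 26 reads, and for AP2M1 (mu subunit of AP-2) and CLTC from WT chromatin, with 31 and 28 reads.
ARF1, chr1:228284812-228284841, plus strand: aagcATGgggaacatcttcgccaacctctt
AP2M1, chr3:183894772-183894801, plus strand: atctgccgccATGattggaggcttattcat
CLTC, chr17:57697489-57697518, plus strand: cgccATGgcccagattctgccaattcgttt

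Between the compartments of WT protein, the shares of coat genes past 2-fold were no higher than those of all genes. By each gene's reads-per-million, 6 of 28 genes with clusters in both lists and at least 20 reads were past 2-fold higher and 7 past 2-fold lower in WT cytoplasm against WT chromatin, and over 6220 genes the shares were 29.4% and 25.8%. The highest log2 ratios were those of AP2S1, ARF1, SAR1A and AP3S1, at 3.98, 3.91, 3.57 and 2.83. The lowest were those of SEC31A, AP3B1, COPA and CLTC, at -2.62, -2.44, -1.98 and -1.67. Members of like kind were spread between them, with -1.05 for the light chain CLTA, -0.16 for SAR1B, 0.40 for ARF3, 0.09 for AP3D1 and 0.69 for AP2A1.

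**Figure D1:**
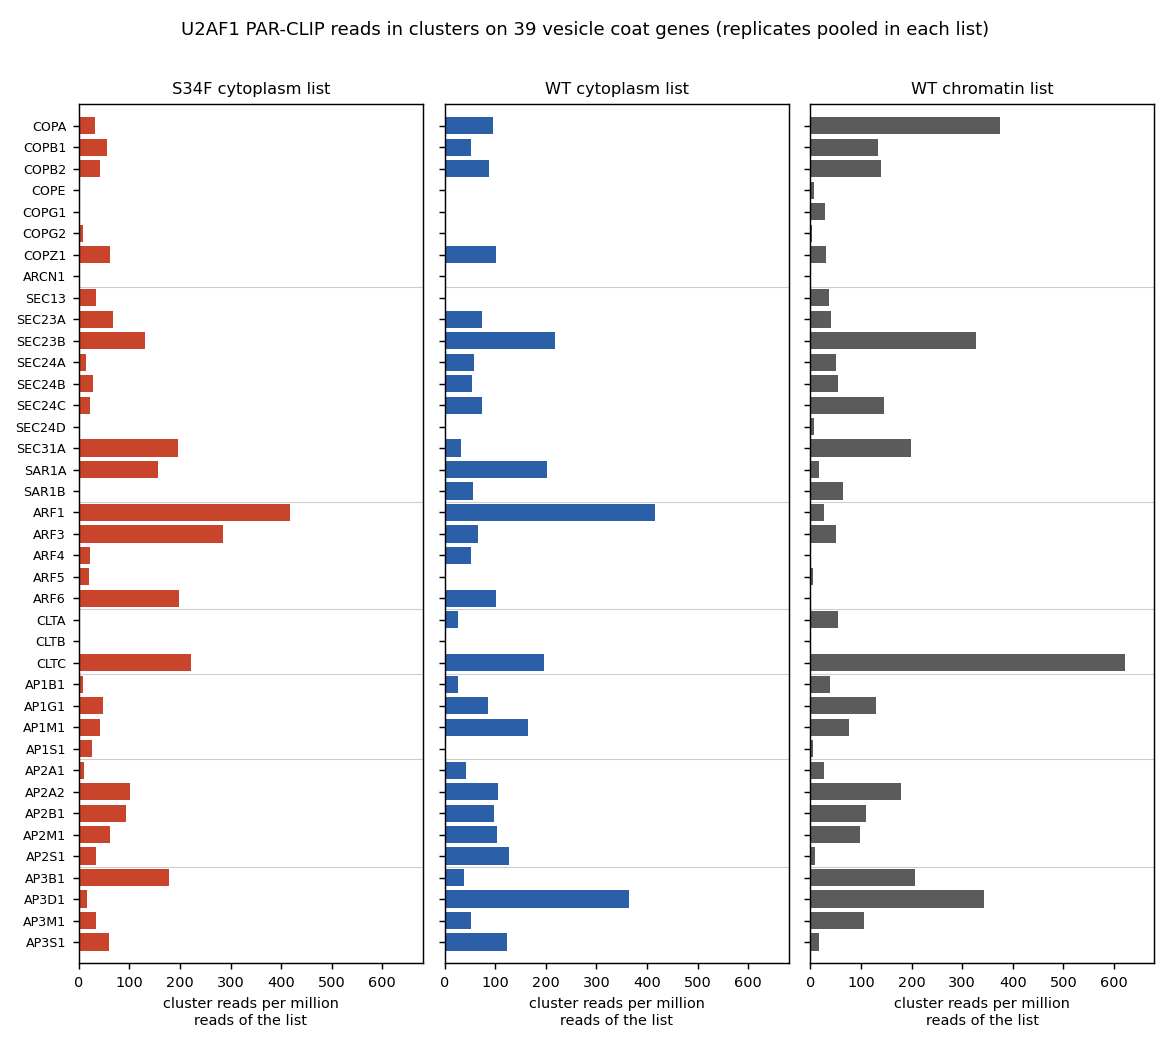
PAR-CLIP reads in clusters on each of the 39 genes (bars, in reads-per-million of the list) in the S34F cytoplasm, WT cytoplasm and WT chromatin lists, each of which pools 2 replicates. ARF1 leads both cytoplasmic lists at 418 and 416, CLTC leads the chromatin list at 622, and ARCN1 and CLTB have no bar in any list.

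U2AF1 precipitates were compared with control precipitates and with cytosolic RNA to ask which mRNAs travel with U2AF1 in HBEC. None of the 39 coat genes was called higher or lower in IP over IgG by edgeR's quasi-likelihood test at an adjusted p under 0.05, and 4 had an unadjusted p under 0.05. Among all 11612 genes tested 0.224% were called higher and 1.12% lower, and 12.9% had an unadjusted p under 0.05. DESeq2 called 1 coat gene, ARCN1, higher, and 210 of all genes higher and 426 lower. The median log2 fold change was -0.04 over the 39 genes and 0.03 over all genes tested. In IP over Cytosol edgeR again called none of the 39 (background 0.491% higher and 0.0431% lower), with 4 at an unadjusted p under 0.05 (7.33% of all genes), and DESeq2 called SEC24C lower, with 53 of all genes lower. In IgG over Cytosol neither tool called any of the 39 (background 0.663% higher and 0.0172% lower), and 3 had an unadjusted p under 0.05 by edgeR (7.31% of all genes).

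ARCN1 had the highest value of the 39 in IP over IgG. It stood at 71.7, 130.4 and 81.7 CPM in IP of the S34F, FS and WT lines, at 17, 21.6 and 46.2 CPM in IgG and at 79.6, 65.8 and 77.2 CPM in Cytosol of the same lines. All 3 IP libraries lay above all 3 IgG libraries, and the IgG libraries also lay below all 3 Cytosol libraries. The log2 fold change was 1.63 ± 0.43 (SE) in IP over IgG with an edgeR adjusted p of 0.0768, 0.30 ± 0.41 in IP over Cytosol (adjusted p = 0.934) and -1.33 ± 0.42 in IgG over Cytosol (adjusted p = 0.344), which share libraries. ARCN1 was also a gene with no PAR-CLIP cluster in the Flp-In-293 lists.

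SEC24B, a COPII cargo adaptor, and AP3S1, the small subunit of AP-3, followed. SEC24B stood at 26.7, 20.5 and 29.1 CPM in IP of the S34F, FS and WT lines, at 9.37, 17.2 and 2.25 CPM in IgG and at 9.21, 10.2 and 13.1 CPM in Cytosol. Every IP library lay above every IgG library, but the IgG values spread widely, and the log2 fold change in IP over IgG was 1.40 ± 0.90 (edgeR adjusted p = 0.564). AP3S1 stood at 30.6, 49.2 and 32.4 CPM in IP and 17.4, 7.42 and 15.2 CPM in IgG of the same lines, a log2 fold change of 1.37 ± 0.61 (adjusted p = 0.355). At the other end were SEC24C with -0.63 ± 0.26, SEC31A with -0.60 ± 0.38 and COPA with -0.52 ± 0.29.

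SEC24C stood at 139.8, 85.4 and 175 CPM in IP of the S34F, FS and WT lines, at 197, 166 and 171 CPM in IgG and at 232, 204 and 239.8 CPM in Cytosol. Its IP value in the WT line lay between the IgG values, while all IP values lay below all Cytosol values. In IP over Cytosol the log2 fold change was -0.82 ± 0.26 (edgeR adjusted p = 0.363), the lowest of the 39, followed by COPG2 at -0.70 ± 0.88 and COPE at -0.60 ± 0.20. The highest were SEC24B at 1.21 ± 0.85, SAR1B at 0.61 ± 0.94 and AP3B1 at 0.44 ± 0.56. In IgG over Cytosol the lowest were ARCN1, SEC24A at -1.08 ± 0.84 and AP3S1 at -0.97 ± 0.59, and the highest SAR1A at 0.60 ± 0.64, CLTC at 0.50 ± 0.33 and AP2M1 at 0.35 ± 0.28, none of them called.

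**Figure D2:**
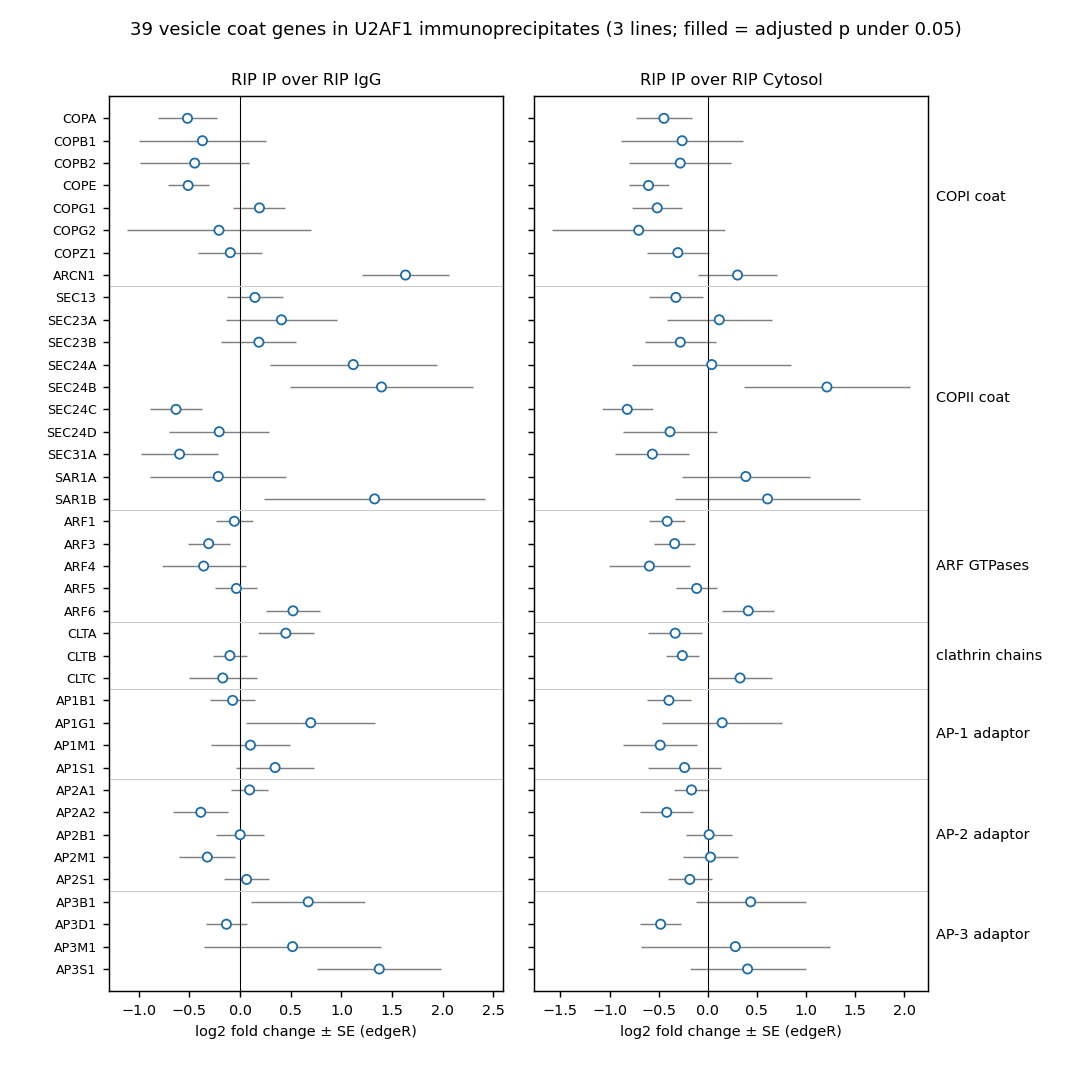
Log2 fold changes (points) with SE (bars) of the 39 genes in IP over IgG and IP over Cytosol, from edgeR over 3 lines. No point is filled, since no gene passed an adjusted p under 0.05, and ARCN1 lies farthest to the right in IP over IgG at 1.63.

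Levels were compared between genes only per length, as the deposited RPKM of Cytosol libraries (reads per length of transcript and depth of library, mean ± SD over the 3 lines). The highest were CLTB at 137 ± 9.23, ARF1 at 111 ± 18.8, COPE (epsilon subunit of COPI) at 104 ± 5.9, ARF5 at 102 ± 12.3 and AP2M1 at 88.5 ± 45 RPKM. The SDs of neighbours in this order overlap, but those of CLTB and COPE do not. CLTB also lay above ARF1 in each line, at 127, 146 and 137 RPKM against 90.1, 117 and 126 RPKM in S34F, FS and WT. The differences between genes were not tested. The lowest were SAR1B at 0.599 ± 0.135, SEC24B at 0.71 ± 0.152, SEC24A at 0.733 ± 0.101 and AP3M1 (mu subunit of AP-3) at 0.915 ± 0.581 RPKM. Subunits of the same coat were far apart in mRNA level, as with COPE and COPB1 of COPI, the second of which stood at 2.39 ± 0.507 RPKM.

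The gradients asked how many ribosomes each mRNA carried. The coat mRNAs were shifted to the heaviest fraction: in 8-10 ribosomes over monosomes 24 of the 39 were called higher and none lower by edgeR's quasi-likelihood test with line as a block, and 28 had an unadjusted p under 0.05. Among all 15945 genes tested 28.3% were called higher and 21.6% lower, and 56.8% had an unadjusted p under 0.05. DESeq2 called none of the 39 lower either. The median log2 fold change was 0.99 over the 39 genes and 0.08 over all genes. In single lines the median log2 difference of the 39 was 1.42 in S34F, 0.75 in FS and 0.55 in WT. Over all genes it was 0.02, -0.12 and -0.15 in the same lines. Without the line block 15 were called higher, along with 2739 of the 15945 genes, against 4519 with it. The scaling compares shares within libraries, so the amount of RNA in a fraction is not measured. In such bulk samples fewer cells of a type and less RNA per cell cannot be told apart.

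Among the GTPases that start coat assembly, all 5 ARF genes and SAR1A were called higher in 8-10 ribosomes. ARF1 stood at 559, 864 and 1214 CPM in the 8-10 fraction of the S34F, FS and WT lines and at 201, 204 and 319 CPM in their monosomes. The fractions did not overlap, and the log2 fold change was 2.02 ± 0.34 (edgeR adjusted p = 9.22e-05). ARF3, a close relative of ARF1, stood at 424, 635 and 756 CPM in the 8-10 fraction and 133, 145 and 183 CPM in monosomes, a log2 fold change of 2.14 ± 0.32 (adjusted p = 4.02e-05). For ARF5, ARF4 and ARF6 the log2 fold changes were 2.17 ± 0.41, 1.43 ± 0.31 and 1.03 ± 0.30.

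The SAR1 paralogs had unlike values. SAR1A stood at 152, 131 and 82.4 CPM in the 8-10 fraction of the S34F, FS and WT lines and at 33.5, 40.7 and 22.8 CPM in their monosomes, a log2 fold change of 2.05 ± 0.31 (edgeR adjusted p = 3.75e-05). SAR1B stood at 159.6, 155 and 92 CPM in the 8-10 fraction and 187, 198 and 157 CPM in monosomes, a log2 fold change of -0.31 ± 0.28 (adjusted p = 0.357). The gap between the paralogs was not itself tested. Reads of near-identical paralogs or processed copies may be split between them in a way the sources used here do not state.

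Of the COPI subunits 5 of 8 were called higher. COPZ1 (zeta), COPE and COPB2 (beta prime) had log2 fold changes of 1.85 ± 0.40, 1.79 ± 0.36 and 1.78 ± 0.34, and ARCN1 and COPG1 (gamma) of 1.03 ± 0.28 and 0.91 ± 0.26. COPB1 (beta) had 0.94 ± 0.39 (edgeR adjusted p = 0.0514) and COPA 0.63 ± 0.28 (adjusted p = 0.0607), and COPG2, the paralog of COPG1, 0.37 ± 0.41. Of the COPII genes 4 of 10 were called higher: SAR1A, the inner coat subunits SEC23A with 1.58 ± 0.34 and SEC23B with 1.37 ± 0.33, and the outer coat subunit SEC13 with 1.46 ± 0.32. The cargo adaptors SEC24A, SEC24B, SEC24C and SEC24D had 0.34 ± 0.31, -0.08 ± 0.35, 0.40 ± 0.26 and 0.70 ± 0.32, and SEC31A had 0.16 ± 0.30, none called.

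All 3 clathrin chains were called higher, with 1.82 ± 0.37 for CLTB, 1.06 ± 0.34 for CLTC and 1.00 ± 0.34 for CLTA. For CLTC the log2 difference was 2.10 in the S34F line, -0.05 in the FS line and 0.24 in the WT line, so its value came mainly from the S34F line. In the AP-1 adaptor 3 of 4 were, led by the small subunit AP1S1, the highest of all 39. AP1S1 stood at 169, 255 and 219.5 CPM in the 8-10 fraction of the S34F, FS and WT lines and at 58.9, 51.6 and 48 CPM in their monosomes, a log2 fold change of 2.21 ± 0.38 (edgeR adjusted p = 0.000106). The large subunit AP1G1 had 0.99 ± 0.33 and AP1M1 0.94 ± 0.33, both called, and AP1B1 had 0.43 ± 0.30. In AP-2 the small subunit AP2S1 (1.20 ± 0.40) and AP2M1 (0.80 ± 0.29) were called, and the large subunits AP2A1, AP2A2 and AP2B1 had 0.28 ± 0.35, 0.21 ± 0.29 and 0.24 ± 0.33. In AP-3, AP3S1 (1.35 ± 0.35) and AP3B1 (0.97 ± 0.33) were called, and AP3D1 and AP3M1 had 0.65 ± 0.29 and -0.28 ± 0.28. CLTC was not the only called gene with its largest log2 difference in the S34F line. For AP3B1 it was 1.81 in S34F, 0.27 in FS and 0.14 in WT. In the same lines AP1G1 had 1.45, 0.75 and 0.24, and ARCN1 of COPI had 1.655, 0.724 and 0.194. Others went the other way, among them AP2S1 with 0.62, 1.03 and 1.29.

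Between polysomes of middle size the coat mRNAs went both ways. In 6-7 over 2-3 ribosomes 14 of the 39 were called higher and 6 lower, where 20.8% of all genes were called higher and 12.8% lower, and the median was 0.08 over the 39 and -0.04 over all genes. An unadjusted p under 0.05 was found for 24 of the 39 and 43.2% of all genes. Without the line block 2 were called lower, and RLE scaling and DESeq2 called 10 and 11 lower. Over all genes 2036 were called lower, 986 without the block, and 2477 and 2747 with RLE scaling and DESeq2. Those higher were all 5 ARF genes, CLTB, AP2M1, AP1S1, AP2S1, COPE, AP3S1, SAR1A, COPZ1 and AP3D1. CLTB had the highest value, 1.74 ± 0.27 (edgeR adjusted p = 3.26e-05), followed by ARF3 with 1.71 ± 0.23, ARF6 with 1.69 ± 0.21 and ARF4 with 1.68 ± 0.22. The 6 lower were COPG2 with -0.83 ± 0.31, COPB1 with -0.80 ± 0.28, CLTC with -0.75 ± 0.24, AP3M1 with -0.71 ± 0.20, AP3B1 with -0.66 ± 0.24 and SAR1B with -0.62 ± 0.20. Without the FS line 2 of the 39 were called lower, and without the WT line none. Over all genes 2315 were called lower without the FS line and 498 without the WT line.

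The clathrin heavy chain CLTC and the light chain CLTB lay apart in the gradient. In the WT line CLTC stood at 102 CPM in monosomes and at 111, 70.8, 78.8, 61.5, 61.3, 33 and 121 CPM in fractions of 2, 3, 4, 5, 6, 7 and 8-10 ribosomes. In the same fractions CLTB stood at 203, 218, 343, 238, 507, 547, 914 and 688 CPM.

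**Figure D3:**
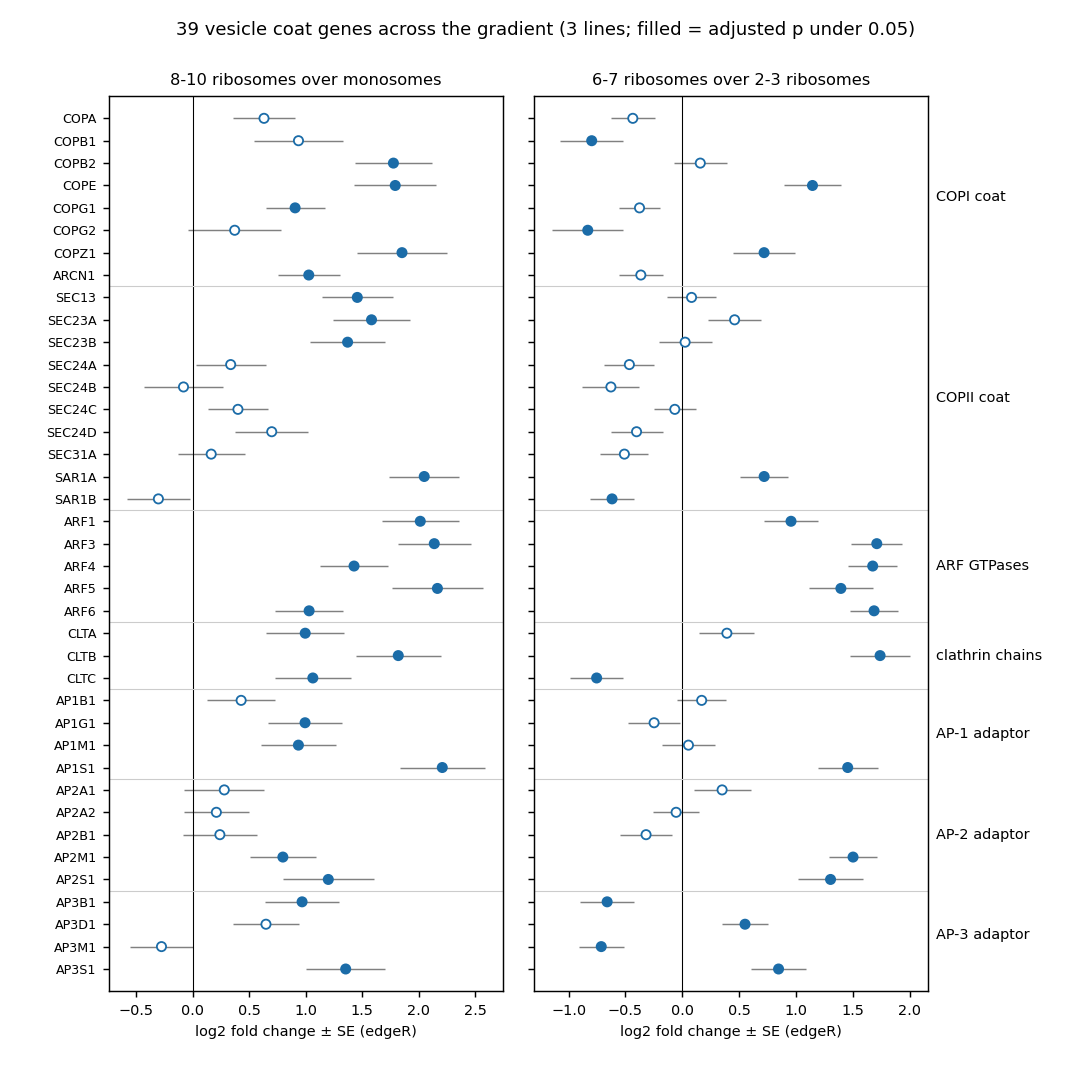
Log2 fold changes (points) with SE (bars) of the 39 genes in 8-10 ribosomes over monosomes and in 6-7 over 2-3 ribosomes, from edgeR over 3 lines, with filled points at an adjusted p under 0.05. All 5 ARF genes are called higher in both panels, and 24 genes are called higher in the first and 14 in the second.

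Transcript length went with this order. The 39 were split at 2500 bases after the values had been seen. In 8-10 ribosomes over monosomes 13 of the 14 shorter and 11 of the 25 longer genes were called higher, and in 6-7 over 2-3 ribosomes 10 of 14 and 4 of 25, with 1 and 5 called lower. Spearman's rho across the 39 genes between length and log2 fold change was -0.63 and -0.62 in the 2 comparisons, against -0.14 and -0.20 over all genes. In single lines it was -0.16 in S34F, -0.70 in FS and -0.71 in WT for 8-10 ribosomes over monosomes. For 6-7 over 2-3 ribosomes it was -0.77 in S34F, -0.55 in FS and -0.57 in WT. The genes share libraries, so these are descriptions. The length listed for COPG2, 1562 bases, puts it among the shorter genes, while its paralog COPG1 has 3074 bases. COPG2 was the shorter gene not called higher in 8-10 ribosomes over monosomes and the one called lower in 6-7 over 2-3 ribosomes. Whether its listed length covers the whole mRNA was not tested.

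An index of position in the gradient was compared between lines, with 1 gradient per line and so no test. It was computed per gene in each gradient as the mean ribosome number of the fractions, weighting each fraction by its CPM and counting 8-10 as 9. CPM sets every fraction to the same total, so the index is relative and does not give the ribosomes an mRNA carried. Its median over the 38 genes with at least 500 counts in every gradient (all but COPG2) was 5.38 in the S34F line, 5.07 in the FS line and 5.02 in the WT line. The median difference was 0.247 for S34F minus WT, against 0.0786 over all 9504 genes, and 0.00874 for FS minus WT, against 0.0906. For S34F minus WT 11 of 38 (28.9%) lay outside the middle 90% of all genes, by which 10.0% of all genes do, and for FS minus WT 2 of 38 did. The median of S34F minus WT was 0.77 over the 25 genes of 2500 bases or longer, against 0.127 over all genes of that length, and 0.00528 over the 13 shorter ones. Without the 8-10 fraction the median over the 25 longer genes was -0.0532, with 7 of 25 above 0, and with TMM-scaled CPM the median over all 38 was 0.0172, against -0.0501 over all genes.

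The 6 above that range in S34F minus WT were COPB1, CLTC, COPB2, SEC24D, AP3B1 and SEC23A. COPB1 had an index of 6.16 in the S34F line, 4.41 in the FS line and 4.08 in the WT line. CLTC had 6.06 in the S34F line, 4.31 in the FS line and 4.45 in the WT line. The 5 below were AP2A1 with a difference of -0.60, AP1S1 with -0.55, COPZ1 with -0.52, ARF5 with -0.50 and AP2A2 with -0.49. In FS minus WT the 2 outside, both above, were AP3M1 with 0.60 and AP1B1 with 0.58.

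The difference was seen with the 8-10 fraction and not without it. In that fraction CLTC stood at 626 CPM in the S34F line, 235 CPM in the FS line and 121 CPM in the WT line, and COPB1 at 195, 85.3 and 44.9 CPM in the same lines. There 11 of the 39 were past 2-fold higher in S34F over WT (23.2% of all genes) and 4 past 2-fold lower (8.37%), both near the shares of all genes. The median log2 ratio of S34F over WT there was -0.07 over the 39 and 0.13 over all genes. Of the 11, 10 were 2500 bases or longer, among them CLTC with a log2 ratio of 2.36, COPB1 with 2.09 and COPB2 with 2.01. The one with a shorter listed length was COPG2 with 2.31. In FS over WT 4 of the 39 were past 2-fold higher in that fraction (12.5% of all genes), COPG2, AP1G1, AP2B1 and ARCN1, and none lower (6.08%). The 4 lower in S34F over WT were all shorter than 2500 bases: ARF1 with -1.12, COPZ1 with -1.07, ARF5 with -1.04 and COPE with -1.03. When the 8-10 fraction was left out, chosen after the values had been seen, the median of S34F minus WT was -0.0482 and 3 of 38 lay outside the range.

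**Figure D4:**
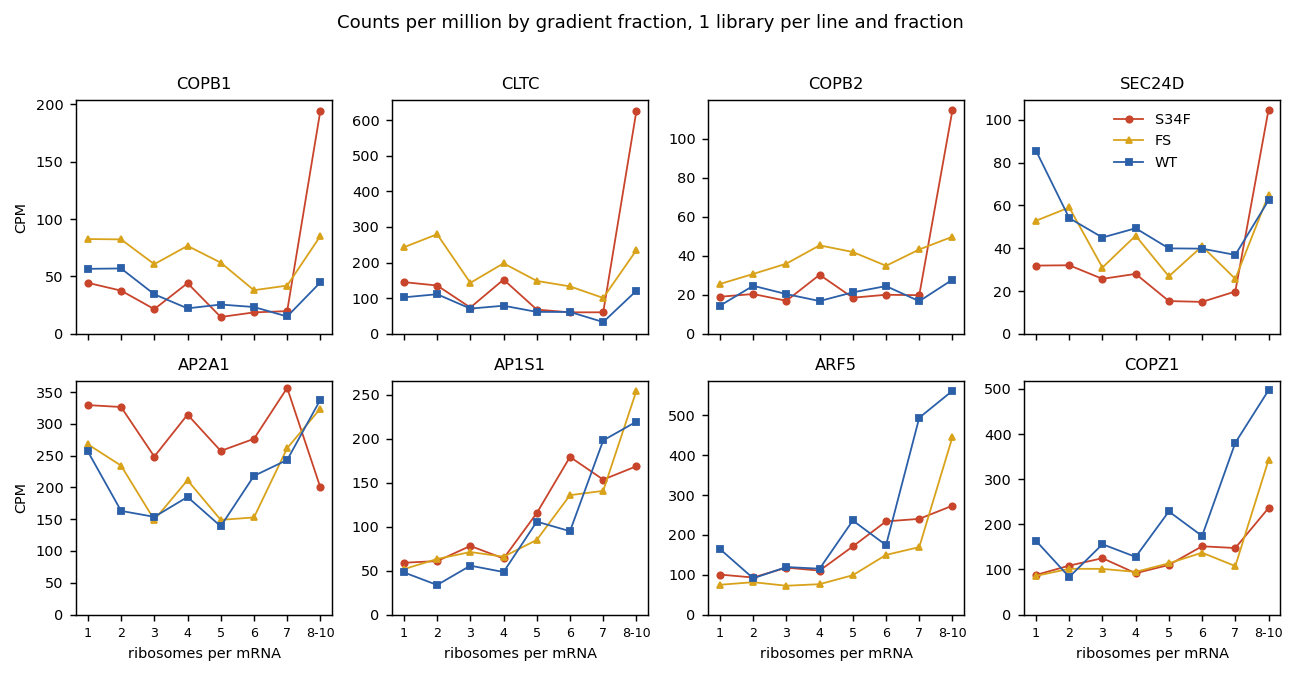
CPM (vertical axis, from 0) of selected coat genes by gradient fraction (horizontal axis, ribosomes per mRNA) in the S34F, FS and WT lines, 1 library per point. CLTC reaches 626 CPM in the 8-10 fraction of the S34F line, above 235 CPM in the FS line and 121 CPM in the WT line.

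**Figure D5:**
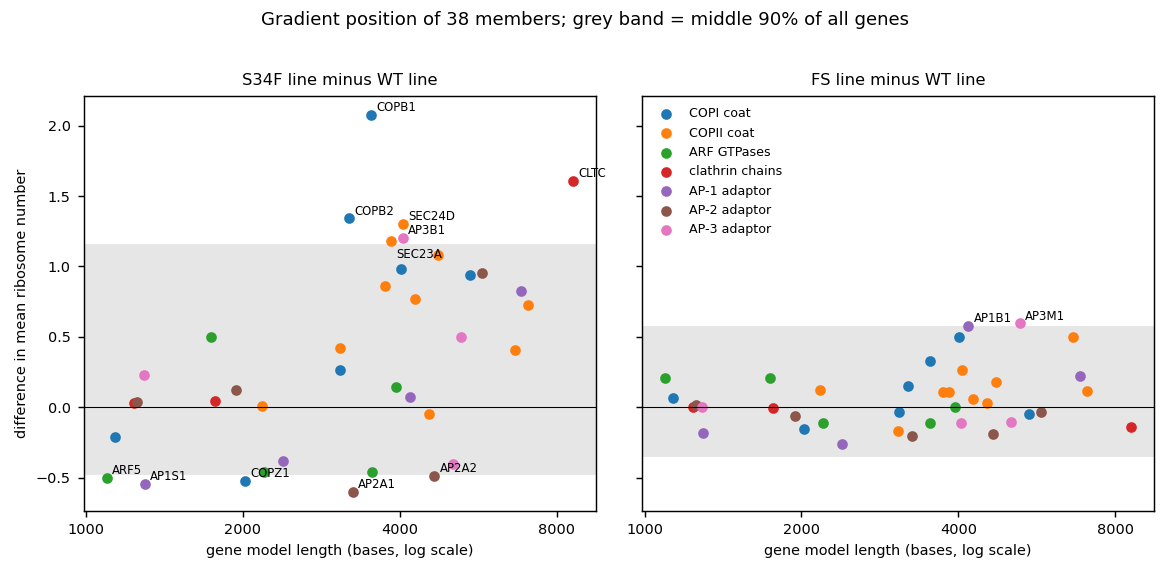
Difference from the WT line in the gradient index (vertical axis, labelled mean ribosome number) against transcript length in bases (log axis) for 38 genes (points, coloured by coat). Panels are for the S34F line and the FS line, and the grey band is the middle 90% of all genes. The index is relative, since each fraction is scaled to the same total. For S34F, 6 genes lie above the band and 5 below it, and for FS 2 lie above it.

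Few coat mRNAs differed past 2-fold in level between lines. As mean CPM over the 8 fractions 1 of the 39, CLTC, was past 2-fold higher in S34F over WT and 1, SEC23B, past 2-fold lower (2.98% and 2.51% of all genes), with log2 ratios of 1.04 and -1.19. SEC23B was also lower in the Cytosol libraries, by a log2 ratio of -1.02, and CLTC had 0.14 there. In FS over WT 5 were past 2-fold higher over the gradient and none lower (11.6% and 4.28% of all genes): AP1G1, COPG2, CLTC, AP3B1 and AP2B1. Their log2 ratios were 1.24, 1.20, 1.20, 1.19 and 1.06 in the gradient and -0.39, -0.23, -0.15, -0.60 and 0.28 in Cytosol, so none was past 2-fold in both. In Cytosol AP2M1 stood at 754, 699 and 223 CPM in the S34F, FS and WT lines, the one gene past 2-fold higher in S34F over WT (background 7.73%) and in FS over WT (8.42%). As mean CPM over the gradient AP2M1 stood at 537, 486 and 559 in the same lines. Its log2 ratios there were -0.06 in S34F over WT and -0.20 in FS over WT. The IP and IgG libraries of the WT line held 447 and 601 CPM of it, so the gap was seen in 1 WT Cytosol library. Past 2-fold lower in Cytosol were SEC23B in S34F over WT (7.06%) and AP3M1 in FS over WT (9.81%), at a log2 ratio of -1.01.

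Other genes of the pathway, from lists chosen with earlier results of these data known, were not called in any precipitation comparison. In 8-10 ribosomes over monosomes 16 of 23 cargo receptors of the early secretory pathway were called higher and none lower, with 2.32 for TMED9, 2.28 for SURF4 and 2.05 for TMED2. Of 33 genes listed as SNAREs and tethers, which capture vesicles at their target and fuse them, 22 were called higher and 2 lower. Those higher included RAB1B, a GTPase on that list, with 2.22. Those lower were GOSR1 with -1.13 and BET1L with -0.80. Of 20 exchange factors and activators of the coat GTPases 14 were called higher and none lower, and of 10 retromer and sorting nexin genes 8 and none. Clathrin accessory proteins were mixed, with 13 of 33 higher, led by PACSIN3 with 2.98, and 3 lower, led by EPN1 with -1.84. Of 19 adaptor and coat subunits outside the 39, 5 were higher and 4 lower, near the 28.3% and 21.6% of all genes, among them SEC31B, the paralog of SEC31A, with -2.18.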

How the data were processed

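RNA of 9 precipitation or cytosol libraries and 24 gradient libraries of 3 HBEC lines, and 6 PAR-CLIP samples in 3 pooled lists, were analysed. The deposited tables hold expected counts per gene, with 57.5% of polysome and 26.3% of precipitation values not whole, which were rounded here. RPKM values are the authors', in the deposited precipitation tables, and their library totals are 3.14 to 5.67 times the summed counts. The deposited PAR-CLIP lists give read counts per cluster, at least 4 reads and 2 conversion positions in each, and the T-to-C fraction. TopHat is named in the submitters' processing notes. Its version, the counting tool, strand setting and genome build are not given in the sources used here. Of 21603 polysome entries, 28 names turned into dates and 45 repeats were left out, and of 26453 precipitation entries 119 repeats.

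Counts were tested with edgeR 4.0.16 (R 4.3.3, limma 3.58.1): TMM scaling, edgeR's filter on low counts, quasi-likelihood test, line as a block, Benjamini-Hochberg adjusted p under 0.05 over all genes tested. ± after a log2 fold change is its SE, taken from the fold change and the F statistic. DESeq2 1.42.0 was an alternative. The test was also run on simulated data that held no differences between lines, so that run does not bear on the spread between lines. The 3 lines pair the libraries because each line is its own cell line. Deviations of same-line libraries correlated at 0.0237 to 0.133 in the precipitation data and -0.251 to 0.765 in the gradients. Lines were compared by size only. Line levels use log2(CPM + 1).

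Members and lists were chosen with earlier results of these data known. Named were at most the 12 largest calls each way, otherwise the 3 highest and 3 lowest, the 8 genes with most PAR-CLIP reads per list, and paralog pairs. Others are given to account for every member.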

Additional observations from a re-analysis of the deposited data

Results flagged for a closer look

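SEC24B, a COPII cargo adaptor, was past 2-fold in opposite directions in the S34F and WT lines in 8-10 ribosomes over monosomes. Its log2 difference was 1.11 in the S34F line and -1.11 in the WT line, with 1 library per fraction and line. Others of the 39 also had opposite signs in these lines by smaller amounts, among them COPB1 with 2.11 in S34F and -0.33 in WT, SEC24D with 1.68 and -0.45, COPG2 with 1.34 and -0.59, AP2B1 with 1.03 and -0.51, SEC24A with 1.01 and -0.57, and SEC31A with 0.90 and -0.57 in the same lines. The differences between the lines were not tested.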

How the results depend on the processing

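Without the replicate block, which pairs libraries by line, 15 genes were called higher in 8-10 ribosomes over monosomes and 2 lower in 6-7 over 2-3 ribosomes. Leaving out each line gave 19 to 22 and 0 to 4. Over all genes it gave 3140 to 3716 higher and 498 to 2315 lower, against 4519 and 2036 with all lines. RLE scaling and DESeq2 gave 10 and 11 lower in 6-7 over 2-3 ribosomes. In IP over IgG 1 gene, ARCN1, was called higher by DESeq2, without the filter, and without genes with isolated zeros. Over all genes 210, 71 and 44 were called higher in these settings, against 26 in the main fit. DESeq2 called 1 lower in IP over Cytosol, SEC24C, with 53 of all genes lower. AP3B1 in IP over Cytosol turned to -0.14 without the FS line and AP2M1 in IgG over Cytosol to -0.23 without the WT line. In 8-10 ribosomes over monosomes AP3M1 turned to 0.015 without the filter, and SEC24B to 0.24 without the filter, 0.20 without the FS line and 0.30 without the WT line. The causes were not tested. For the gradient index, counting 8-10 as 8 gave medians of 4.86 in FS and 4.82 in WT and 1 gene outside the range in FS minus WT. A minimum of 100 counts gave 0 there. TMM-scaled CPM gave 1 there, 0.0172 for S34F minus WT and 5.26 in WT. Without the 8-10 fraction, added after seeing the data, S34F minus WT was -0.0482, with 3 genes outside, 4 in FS minus WT, and medians of 3.95 in S34F, 3.93 in FS and 4.03 in WT. With a pseudocount of 5 CPM, 0 genes were past 2-fold lower in Cytosol in S34F over WT and 0 in FS over WT. With at least 10 reads per cluster, 62 clusters were left in S34F cytoplasm, 2 of them from intron into exon, and 71 in WT cytoplasm. Low read counts limit the cytoplasmic PAR-CLIP lists, and 1 library per line and kind limits every line comparison.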
